A study of Homo sapiens with 6 samples.

Results

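The genes described here are 10 that encode components of the AP-1 transcription factor or belong to the immediate early response, namely FOS, FOSB, FOSL1 and FOSL2 of the FOS family, JUN, JUNB and JUND of the JUN family, and EGR1, IER2 and IER3. They were chosen by gene symbol, with earlier results of these arrays known, and every probe set that the platform annotation assigns to one of these symbols was taken. That gave 22 probe sets of the 54674 on the array, or 10 of the 19775 genes that have a probe set assigned to 1 gene. Because the choice rested on the contrast between CompE and DMSO, the values of the 10 genes in that contrast are given as a description. The same holds for their calls in a fit across all genes, given below, which are no test of these genes. The arrays hold RNA from LS174T, an established human colon adenocarcinoma line known for making mucin, in 3 cultures given CompE at 250 nM for 48 h and 3 cultures given the vehicle DMSO for 48 h. All 6 cultures are of this 1 line, and the labels give no further genotype. CompE is a common short name of Compound E, which blocks gamma-secretase, the enzyme whose cut frees the Notch intracellular domain.

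AP-1 is a dimer of basic leucine zipper proteins. JUN proteins can pair with each other or with FOS proteins, whereas FOS proteins need a partner such as JUN to bind DNA. Many of these genes are transcribed within minutes of a growth factor or stress signal through the MAP kinases, the serum response factor SRF and CREB family factors, and several of their mRNAs decay quickly, so that the first burst may have passed in a sample taken after a long treatment. Whether the levels at 48 h were sustained was not tested. In the intestinal epithelium JUN is known as a partner of Wnt signalling and is needed for tumour growth in mouse models.

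The promoters of 8 of the 10 genes were found in the RefSeq table for GRCh38.p14; FOSL1 and IER3 had no entry. The 250 bases before the gene start are shown for FOS and JUN, whose levels differed most in opposite directions within AP-1. JUND, a JUN family gene whose groups overlapped, is shown too. So is EGR1, the only one of the 8 with matches to the SRF site in this window. Capitals mark matches on either strand to the CRE core TGACG, the full CRE TGACGTCA, the AP-1-like JUN site TGACATCA, the CArG box bound by SRF, and the core TGGGAA of the Notch effector RBPJ.
FOS, chr14:75278578-75278827, plus strand: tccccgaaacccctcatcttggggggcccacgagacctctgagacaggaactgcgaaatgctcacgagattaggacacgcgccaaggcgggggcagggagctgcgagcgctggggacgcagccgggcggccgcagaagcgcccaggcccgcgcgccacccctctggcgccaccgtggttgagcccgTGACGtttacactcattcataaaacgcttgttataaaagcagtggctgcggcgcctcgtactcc
JUN, chr1:58784048-58784297, minus strand: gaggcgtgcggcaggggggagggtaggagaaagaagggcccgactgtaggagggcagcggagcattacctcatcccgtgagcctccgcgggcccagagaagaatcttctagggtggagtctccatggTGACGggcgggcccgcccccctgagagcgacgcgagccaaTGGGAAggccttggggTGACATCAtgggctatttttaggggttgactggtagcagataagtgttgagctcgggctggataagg
JUND, chr19:18281623-18281872, minus strand: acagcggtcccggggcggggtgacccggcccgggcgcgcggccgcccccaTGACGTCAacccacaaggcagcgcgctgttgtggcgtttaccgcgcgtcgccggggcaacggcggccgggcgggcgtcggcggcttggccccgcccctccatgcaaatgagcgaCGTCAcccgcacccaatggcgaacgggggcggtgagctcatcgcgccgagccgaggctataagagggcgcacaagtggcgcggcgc
EGR1, chr5:138465229-138465478, plus strand: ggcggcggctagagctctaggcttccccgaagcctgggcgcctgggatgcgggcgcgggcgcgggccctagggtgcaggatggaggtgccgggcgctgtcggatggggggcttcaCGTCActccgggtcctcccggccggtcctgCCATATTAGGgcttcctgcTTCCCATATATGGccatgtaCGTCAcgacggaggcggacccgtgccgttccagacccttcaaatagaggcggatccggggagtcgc

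All 8 of these promoters held TGACG, the core of the cAMP response element (CRE) read by CREB and ATF factors, against 21.1% of 27305 promoters of the same length. FOS had 1 match, 64 to 60 bases before the gene start, and FOSB had 1 at 60 to 56 bases and FOSL2 1 at 66 to 62 bases, so that the 3 FOS family promoters share a match at nearly the same distance. FOSL2 had another at 201 to 197 bases, and EGR1 had 1 on the other strand at 66 to 62 bases, a distance thus not particular to the FOS family. JUN had 1 at 123 to 119 bases. The palindrome TGACGTCA, which contains that core on both strands, was found in JUND (1.73% of all promoters), and the JUN promoter alone among the 8 held TGACATCA, 67 to 60 bases before the start (2.52%). EGR1 was the only one of the 8 with CArG boxes in this window, 2 in number (1.14% of all promoters hold any). Bases farther upstream were not searched, so SRF sites there would be missed in any of the 8. The RBPJ core was found in JUN and in EGR1 (21.1%), and in EGR1 it overlaps a CArG box. A TATA box, TATAAA, was found in FOS, FOSB and JUNB (11.4%), and a site of the EGR factors in EGR1 (7.97%). None of the 8 held the classical AP-1 site TGACTCA in this window (4.38%). These are matches of letters, not measured binding.

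**Figure D1:**
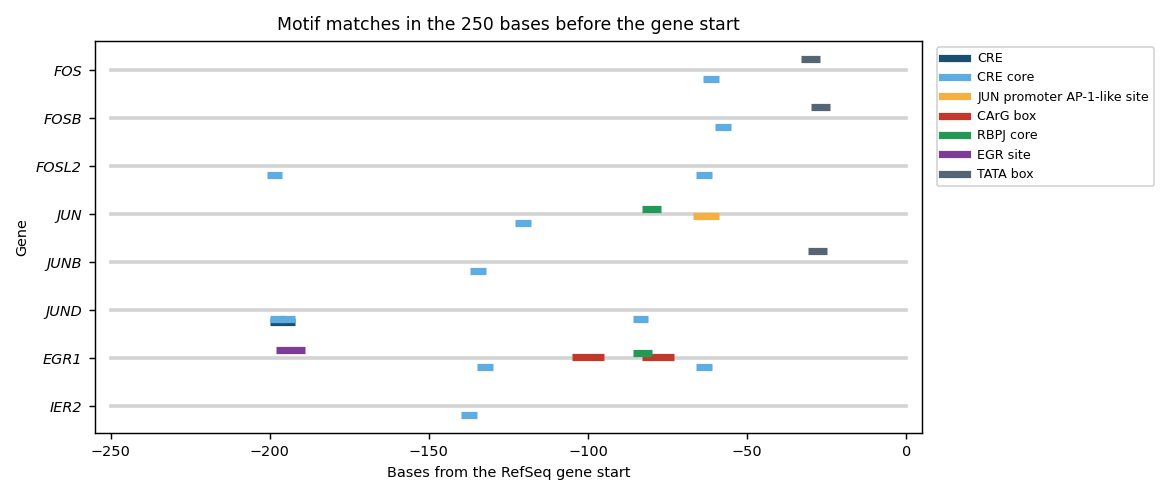
Motif matches in the 250 bases before the RefSeq gene start of 8 of the genes, by distance from the start in bases; each coloured bar is a match on either strand. The CRE core appears in all 8 rows and the CArG boxes only in the EGR1 row.

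The 6 arrays were alike in scale, with median intensities from 36.9 to 38.6. As a check of the treatment, HES1, the repressor gene induced by Notch, fell to 289 ± 29.2 in CompE against 811 ± 58.2 in DMSO (SD, n = 3 each; limma log2 difference -1.49, adjusted p = 0.00198), and ATOH1, which Notch signalling holds down, rose to 574 ± 53.7 in CompE against 94.1 ± 13.2 in DMSO (2.61, adjusted p = 0.000892). All 9 markers of colon epithelium lay above the level of the array's Bacillus control probe sets, an intensity of 45.7. Of markers of other cell types, 4 of 6 for fibroblasts, 1 of 3 for leukocytes and 1 of 3 for endothelium did so, while PTPRC, COL3A1 and CDH5 did not, and the summed intensity of the fibroblast list was 331 to 347 in CompE and 275 to 394 in DMSO, against 26599 to 27216 in CompE and 25605 to 26962 in DMSO for the epithelial list. For ACTB, the 3' probe set divided by the 5' one, a sign of RNA integrity, gave 1.51 ± 0.0193 in CompE and 1.44 ± 0.0201 in DMSO (SD, n = 3 each), and for GAPDH it gave 0.946 ± 0.0264 in CompE and 0.968 ± 0.0106 in DMSO. The hybridisation controls were brighter by 0.11 log2 units in CompE. The part of RNA integrity and of hybridisation in the values that follow was not tested.

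Within AP-1, the FOS and JUN genes stood on opposite sides of their DMSO levels in CompE. FOS and FOSL1 were lower in CompE and JUN was higher, whereas JUNB, JUND and FOSL2 differed by at most 0.14 log2 units in their brightest probe sets. FOSB was not measurable. Outside AP-1, IER3 was lower in CompE, while IER2 and the brightest probe set of EGR1 overlapped between the groups. In bulk RNA, fewer cells that express a gene and less of its RNA per cell cannot be told apart.

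FOS encodes the founding partner of JUN in AP-1. Its probe set read 59.3, 65.4 and 56.6 in the 3 CompE cultures, against 161, 133 and 125 in the 3 DMSO cultures. Every CompE culture lay below every DMSO culture, and the gap between the groups was wider than the range of either. The means were 60.5 ± 4.51 in CompE and 140 ± 18.8 in DMSO, 2.30-fold lower in CompE (log2 difference -1.20 ± 0.13, SE from the 6 arrays). The CompE values stood not far above the Bacillus control level of 45.7, and with 16 added to each intensity before the logarithm the difference was -1.02.

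FOSL1 encodes FRA-1, a FOS protein that lacks the strong activation domain of FOS and is often raised in invasive tumours. It read 125, 140.4 and 134 in CompE cultures, against 193, 189 and 177 in DMSO cultures. The groups did not overlap, but the gap was narrower than for FOS. The difference was -0.49 ± 0.06 log2 units, or 1.40-fold lower in CompE.

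FOSL2, which encodes FRA-2, has 5 probe sets, and they did not point the same way. The brightest read 379, 363 and 364 in CompE, against 325, 344 and 351 in DMSO (log2 difference 0.12 ± 0.04). The next read 343, 315 and 314 in CompE, against 297, 283 and 301 in DMSO (0.14 ± 0.05). Both put CompE above DMSO without overlap, by 1.09-fold and 1.10-fold. The remaining 3, which are dimmer, had differences of -0.15 ± 0.07, -0.19 ± 0.18 and -0.42 ± 0.28. The first and the last of these put CompE below DMSO without overlap, and no array reached the level of the Bacillus probe sets in the last. Averaged over its 5 probe sets FOSL2 differed by -0.10, so that no direction is given for this gene. FOSB, which encodes a FOS protein best known in stimulated neurons, read 24.4, 20.1 and 3.54 in CompE, against 4.84, 15.2 and 16.2 in DMSO. All 6 values lay below the Bacillus control level and below the filter on dim probe sets, so no fold is given.

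JUN, which encodes the AP-1 subunit that activates transcription most strongly among JUN proteins, was higher in CompE in all of its 4 probe sets. The brightest read 1467, 1419.7 and 1479.8 in CompE cultures, against 884, 905 and 829 in DMSO cultures. Every CompE culture lay far above every DMSO culture, and the gap was many times the range within a group. The means were 1455 ± 31.6 in CompE and 873 ± 39.6 in DMSO, 1.67-fold higher in CompE (log2 difference 0.74 ± 0.04). By Affymetrix naming, this probe set holds probes that may bind other sequences. The only JUN probe set without such a suffix read 253, 253 and 304 in CompE, against 169.9, 149.9 and 153 in DMSO, a difference of 0.77 ± 0.10. The other two gave 1.05 ± 0.07 (431 ± 26.0 in CompE and 208 ± 12.4 in DMSO) and 0.50 ± 0.14 (106 ± 18.0 in CompE and 74.2 ± 2.10 in DMSO). None of the 4 overlapped between the groups.

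JUNB, which encodes a weaker activator that can restrain JUN, read 1180.2, 1144 and 1153 in CompE, against 1295, 1394.5 and 1164 in DMSO. CompE replicates 2 and 3 lay just under all DMSO cultures, and CompE replicate 1 lay above the lowest of them. The difference was -0.14 ± 0.08. JUND, the JUN family gene that many cells express without a stimulus, read 2938, 3225 and 3096 in CompE, against 2983, 2826 and 2834 in DMSO in its brightest probe set (0.10 ± 0.05). Its groups overlapped there and in its 3 other probe sets, whose differences ran from -0.03 to 0.18, the last in a probe set under the Bacillus control level. When the arrays were centred on their hybridisation controls the JUND difference was -0.01, and that of JUNB -0.26.

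**Figure D2:**
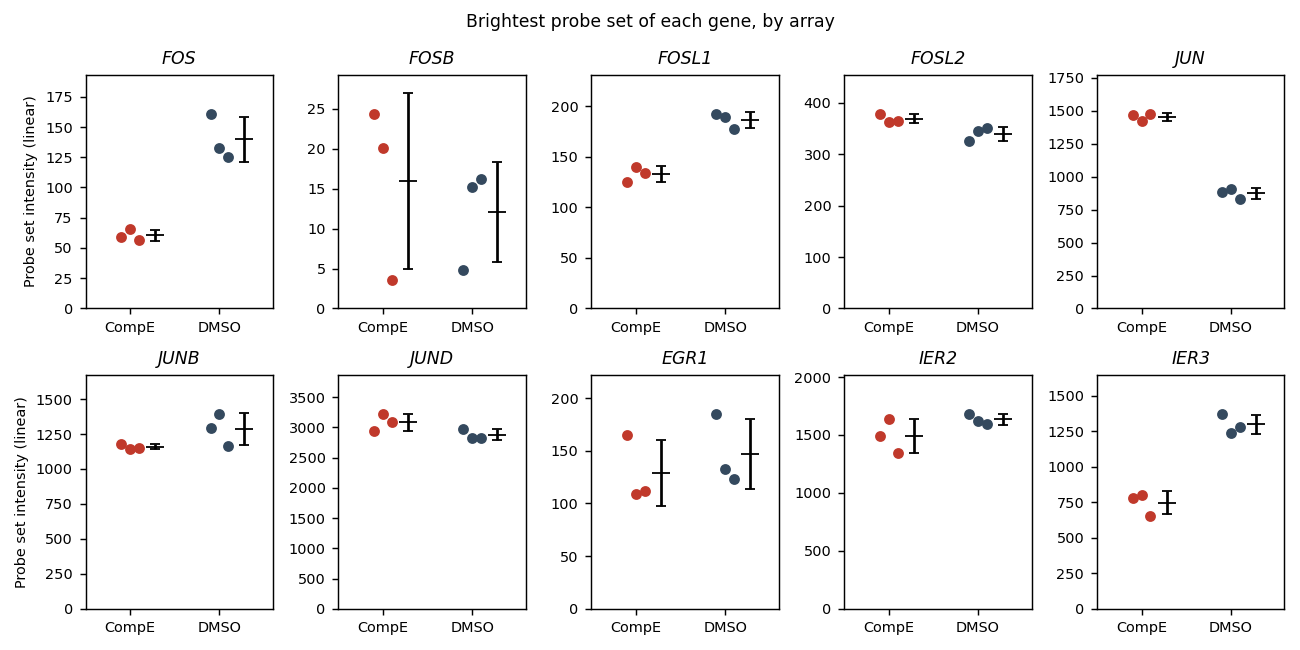
Linear intensity of the brightest probe set of each of the 10 genes in 3 CompE and 3 DMSO cultures (points), with the mean and SD beside them; every vertical axis starts at 0 and has its own range. FOS, FOSL1 and IER3 are lower in all CompE cultures and JUN is higher in all of them.

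EGR1 encodes a zinc finger factor induced through SRF, often together with FOS. Its 3 probe sets disagreed. The brightest read 165, 109 and 112 in CompE, against 185, 133 and 123 in DMSO. Replicate 1 was the high culture in each group, and the groups overlapped (-0.20 ± 0.26). The next read 89.3, 108 and 94.8 in CompE, against 137, 119 and 136 in DMSO, with no overlap (-0.43 ± 0.10). The dimmest differed by 0.15 ± 0.15. No single direction can therefore be given for EGR1. IER2, which encodes a nuclear protein of the immediate early response, read 1487, 1638 and 1344 in CompE, against 1683, 1621 and 1597 in DMSO. The CompE cultures spread across and below the DMSO range (-0.14 ± 0.09).

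IER3, also known as IEX-1, encodes a regulator of survival and of ERK signalling that is also induced by NF-kB. It read 782, 801 and 652 in CompE, against 1372, 1239.6 and 1279.6 in DMSO. Every CompE culture was below every DMSO culture, and the gap was wider than the range of either group. The means were 745 ± 81.3 in CompE and 1297 ± 68.0 in DMSO, 1.75-fold lower in CompE (-0.80 ± 0.10).

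**Figure D3:**
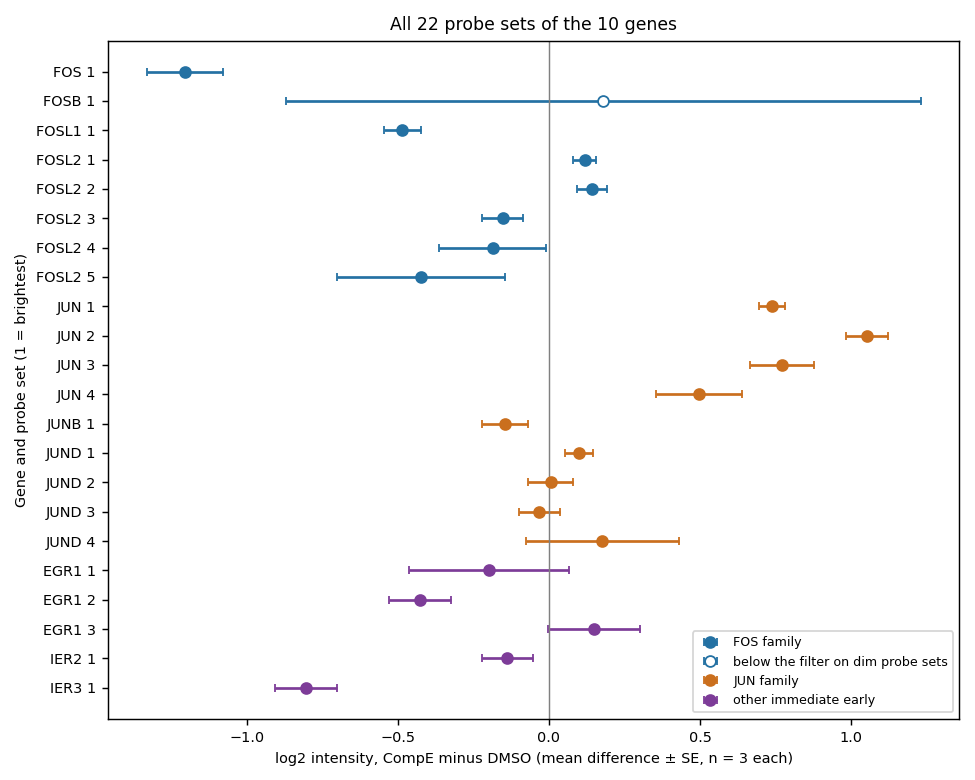
Log2 difference in intensity, CompE minus DMSO, for all 22 probe sets, with the SE from the 6 arrays (n = 3 each) and colours for the FOS family, the JUN family and the remaining genes; 1 is the brightest probe set of its gene and the open point did not pass the filter on dim probe sets. All 4 JUN probe sets lie right of 0, FOS, FOSL1 and IER3 lie left of it, and the probe sets of FOSL2 and EGR1 fall on both sides.

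Over the 22 probe sets, the groups did not overlap in 12, of which 6 were higher and 6 lower in CompE, where 23.3% of all 41097 probe sets assigned to 1 gene, and 29.7% of those past the filter on dim values, did not overlap. The 6 higher ones were the 4 of JUN and the 2 brightest of FOSL2. The 6 lower ones were those of FOS, FOSL1 and IER3, 1 of EGR1 and 2 of the dimmer ones of FOSL2. In all, 21 probe sets passed this filter, which left out the dimmest 40% of the array, and 9 of the 10 genes were therefore in the fit across 14308 genes, FOSB being left out. By their brightest probe sets, 5 of these 9 genes did not overlap, where 32.2% of all genes did not. That fit, limma with Benjamini-Hochberg adjustment at 0.05, called 4 of the 9, namely JUN higher and FOS, FOSL1 and IER3 lower in CompE, where it called 7.14% of all genes. Across probe sets it called 6 of 21, where 4.28% were called in all. As the members were picked on this contrast, nothing is read from either share. The call of FOSL1 was lost without CompE replicate 1, CompE replicate 3, DMSO replicate 1 or DMSO replicate 2, with differences of -0.52 to -0.44 over the 6 ways to leave out 1 array.

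Set against each other as families, the mean log2 difference was -0.52 for FOS, FOSL1 and FOSL2 and 0.23 for JUN, JUNB and JUND, a gap of -0.75. Relative to the mean of the DMSO arrays, the FOS family minus the JUN family was -0.77, -0.70 and -0.79 in the CompE cultures, against 0.04, -0.06 and 0.02 in the DMSO cultures. All CompE cultures were thus far from the DMSO cultures, whose spread was 0.05 (SD within groups). The FOS side of the gap came from FOS and FOSL1 and the JUN side from JUN, since the values used for the others were 0.12 for FOSL2, -0.14 for JUNB and 0.10 for JUND. Levels of different probe sets were not set against each other, and genes of a family are not replicates of it. With FOSB included, in the setting without a filter on dim probe sets, the gap was -0.58.

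**Figure D4:**
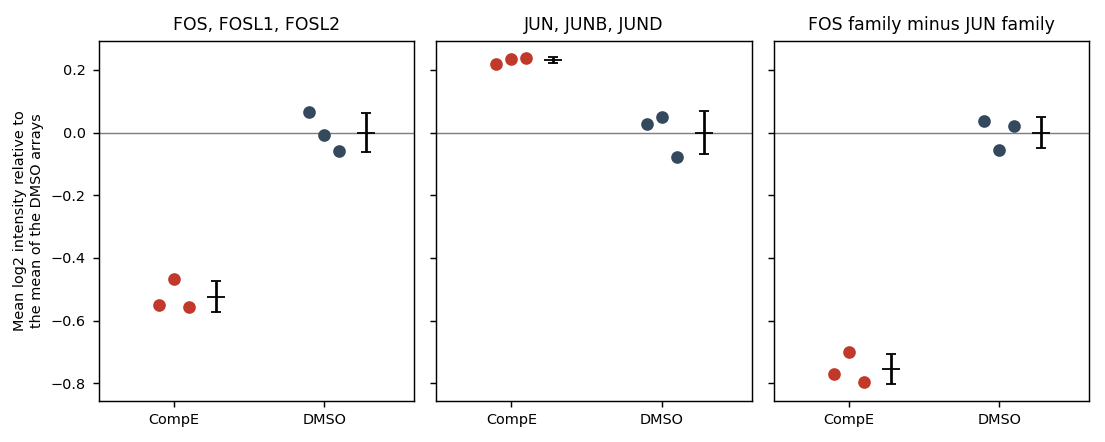
Mean log2 intensity of FOS, FOSL1 and FOSL2 (left), of JUN, JUNB and JUND (middle) and their difference (right) in each culture, relative to the mean of the DMSO arrays, with the mean and SD of 3 cultures beside the points. The difference lies between -0.79 and -0.70 in CompE and between -0.06 and 0.04 in DMSO.

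The spread between replicate cultures, which enters the SE of the contrast on which the genes were chosen, is given as a description. Within groups, the SD of log2 intensity was 0.05 for FOSL2 and JUN, 0.06 for JUND, 0.07 for FOSL1, 0.09 for JUNB, 0.10 for IER2, 0.13 for IER3, 0.15 for FOS and 0.32 for EGR1 (brightest probe sets, 4 residual degrees of freedom), against a median of 0.10 over all 14308 genes. JUN and FOSL2 were among the steadier genes of the array, at percentiles 16.5 and 13.9 of this SD. EGR1 was at percentile 89.1 and FOS at 67.2. Some cultures stood at the end of their group for several of the genes. DMSO replicate 1 was the highest of the DMSO cultures for FOS, FOSL1, JUND, EGR1, IER2 and IER3, and CompE replicate 3 was the lowest of the CompE cultures for FOS, IER2 and IER3.

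The genes whose profile over the 6 arrays lay nearest that of FOS were MALL, which encodes a membrane raft protein, CTSE, an aspartic protease gene, CD70, a ligand gene of the TNF family, PLAC8, and the cytidine deaminase gene CDA. They were picked by this likeness, so their differences are a description. Their root mean square distances from FOS, each profile centred on its own mean, were 0.08, 0.09, 0.10, 0.10 and 0.10 log2 units, where the median over all genes was 0.64. MALL read 472, 501 and 430.2 in CompE, against 1076, 1012 and 963 in DMSO. The 5 share with FOS a low level in CompE and a DMSO replicate 1 that was the highest of its group.

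Of 42 further immediate early genes listed, 39 had a probe set assigned to 1 gene and 33 passed the filter. Among these 33, 1 rose, 8 fell and 24 did not pass in the limma fit, where 4.56% of all genes rose and 2.57% fell. Their median log2 difference was -0.15, against 0.02 for all genes tested, and 22 of the 33 had values below 0. The share of all genes below 0 was not counted, and centring on the hybridisation controls moved the median of all genes to -0.09. For genes of the lists, the SE beside a log2 difference is that of the limma fit, not the plain SE given for the members. DUSP1, which encodes a phosphatase that switches off MAP kinases, rose to 194 ± 11.7 in CompE against 143 ± 6.30 in DMSO (n = 3 each; log2 difference 0.44 ± 0.07, adjusted p = 0.0219). Its other probe set gave 0.05, and the call ended whichever array was left out (adjusted p of 0.0536 to 0.0767) and with the arrays centred on their hybridisation controls (adjusted p = 0.0617). With probe sets averaged the difference of DUSP1 was 0.25 (adjusted p = 0.207). GADD45B, a stress sensor gene of the MAP kinase pathways, fell to 120 ± 7.35 in CompE against 179 ± 14.2 in DMSO (-0.58 ± 0.08, adjusted p = 0.0164), and its 3 other probe sets were also below 0. CCN2, which encodes a matrix-associated growth factor, lay at 30.1 ± 2.70 in CompE, below the Bacillus control level, and at 50.4 ± 5.77 in DMSO, at least 1.10-fold lower against that level (adjusted p = 0.0194). The cytokine gene LIF fell to 134 ± 7.94 in CompE against 179 ± 6.78 in DMSO (-0.42 ± 0.06, adjusted p = 0.0221), and KLF10, a zinc finger gene induced by TGF-beta, to 641 ± 25.3 in CompE against 823 ± 29.0 in DMSO (-0.36 ± 0.06, adjusted p = 0.0227). The call of GADD45B ended without CompE replicate 1, CompE replicate 2 or DMSO replicate 2 (adjusted p up to 0.0672), and that of CCN2 without CompE replicate 1, CompE replicate 3, DMSO replicate 2 or DMSO replicate 3 (up to 0.0747). LIF and KLF10 lost theirs unless the array left out was CompE replicate 3 (up to 0.0827 for LIF and 0.0866 for KLF10). The remaining falls were in ATF3, HBEGF, SGK1 and ZFP36L2, of which SGK1 and ZFP36L2 are named after their values were seen. With no filter on dim probe sets, 2 of the 14 genes called over the 6 lists were called, namely MEF2D and CXCL8.

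Among 17 other basic leucine zipper genes tested that can pair with AP-1 subunits or share their sites, 1 fell and 0 rose in the limma fit (3 were lower and 0 higher at an unadjusted p under 0.05, where 1366 were lower and 2145 higher of all 14308 genes). The one was ATF3, a stress-induced partner of JUN, at 125 ± 22.8 in CompE against 219 ± 21.5 in DMSO (-0.82 ± 0.15, adjusted p = 0.0318). Its 2 other probe sets gave -0.75 and -0.19, and the call held only without CompE replicate 2 among the 6 ways to leave out 1 array (adjusted p of 0.0226 to 0.109). It also ended with probe sets averaged (-0.59, adjusted p = 0.0750). The median of this list was -0.06. In the limma fit, 2.57% of all genes fell and 4.56% rose.

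Upstream of the immediate early genes, 26 genes of the MAP kinase pathways, SRF and its cofactors were tested, with a median of -0.05. Of these, 2 rose, 2 fell and 22 did not pass in the limma fit, where 4.56% of all genes rose and 2.57% fell. At an unadjusted p under 0.05, 6 were higher and 4 lower, where 2145 were higher and 1366 lower of all 14308 genes. MEF2D, a transcription factor gene that acts on the JUN promoter, rose to 138 ± 3.75 in CompE against 99.6 ± 4.69 in DMSO (0.47 ± 0.06, adjusted p = 0.0107), and its 2 other probe sets gave 0.22 and 0.23. RPS6KA2, which encodes an RSK kinase downstream of ERK, rose to 305 ± 7.21 in CompE against 229.8 ± 15.5 in DMSO (0.41 ± 0.06, adjusted p = 0.0230). Its 2 other probe sets gave 0.00 and 0.34, and with probe sets averaged the difference was 0.25 (adjusted p = 0.0398). HRAS fell to 550.1 ± 5.52 in CompE against 639 ± 12.3 in DMSO (-0.22 ± 0.04, adjusted p = 0.0471), and RPS6KA4, which encodes the kinase MSK2, to 471 ± 34.4 in CompE against 605 ± 32.4 in DMSO (-0.36 ± 0.08, adjusted p = 0.0482). The calls of HRAS and RPS6KA4 ended whichever array was left out (adjusted p of 0.0996 to 0.152 for HRAS and 0.0743 to 0.136 for RPS6KA4). That of RPS6KA2 held only without DMSO replicate 1 (0.0364 to 0.0889), and that of MEF2D ended without CompE replicate 1 or DMSO replicate 2 (up to 0.0582) and with probe sets averaged, where the difference was 0.31 (adjusted p = 0.0678). Of 15 genes of JUN and FOS turnover, the ubiquitin ligases, kinases and mRNA decay factors that limit these proteins and mRNAs, 0 passed in the limma fit (2 were higher and 0 lower at an unadjusted p under 0.05, and the smallest adjusted p was 0.0917, for ZFP36L1), and their median was 0.04. Over all genes, 7.14% passed in that fit.

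Of 32 textbook AP-1 targets, 20 passed the filter, with a median of -0.09. Among these, 2 fell, 0 rose and 18 did not pass in the limma fit, where 2.57% of all genes fell and 4.56% rose. At an unadjusted p under 0.05, 5 of the 20 were lower and 1 higher, to be read against the 1366 lower and 2145 higher of 14308. The chemokine gene CXCL8 fell to 166 ± 23.6 in CompE against 493 ± 64.4 in DMSO (-1.57 ± 0.14, adjusted p = 0.00472), and this call held with any array left out. HBEGF, which encodes an EGF receptor ligand, fell to 78.7 ± 3.41 in CompE against 104 ± 9.20 in DMSO (-0.40 ± 0.08, adjusted p = 0.0406). Its 2 other probe sets disagreed, at -0.82 and 0.11, and the call ended whichever array was left out (adjusted p of 0.0838 to 0.115). It also ended with probe sets averaged (-0.37, adjusted p = 0.105). Of 12 heat shock genes listed, which respond to handling, 9 had a probe set assigned to 1 gene and 8 were tested. HSPA1A, HSPA1B, HSPA8 and HSPA1L were not among those tested. Of the 8, 0 passed in the limma fit, where 7.14% of all genes did, and their median was 0.02, as for all genes. At an unadjusted p under 0.05, 1 was higher and 0 lower, and the smallest adjusted p was 0.0563, for HSPB1.

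**Figure D5:**
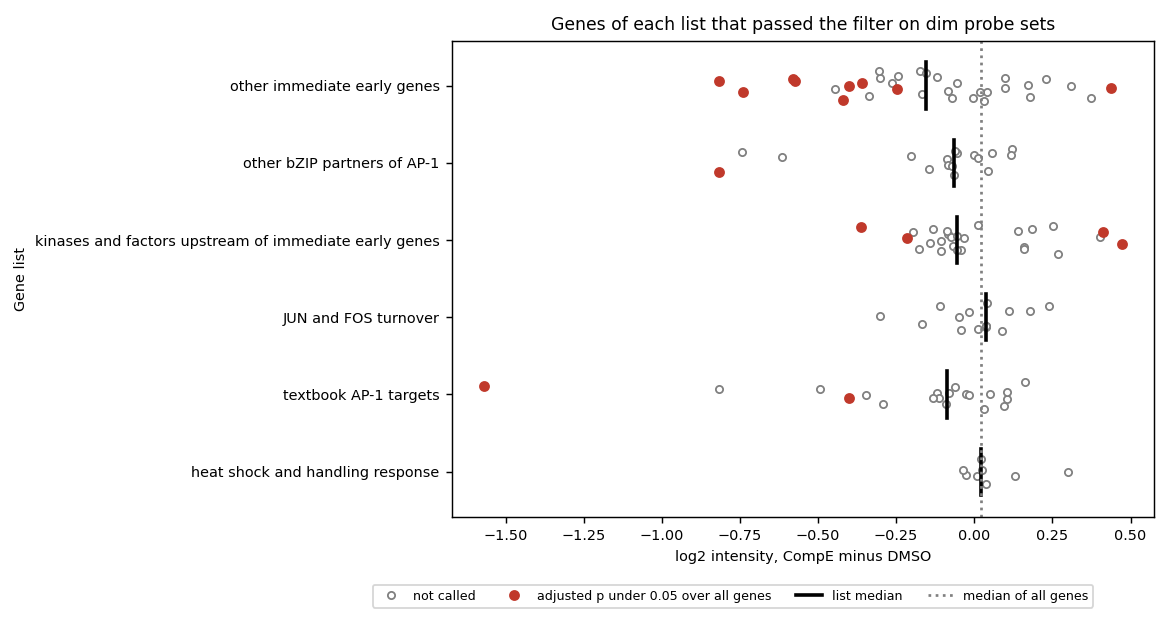
Log2 difference in intensity, CompE minus DMSO, of every gene that passed the filter in each of 6 lists; filled points were called over all genes tested, black bars are list medians and the dotted line is the median of all genes. CXCL8 is the point farthest to the left, and 8 of the 9 called immediate early genes lie left of 0.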

How the data were processed

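RNA of 6 LS174T cultures was amplified and labelled with biotin by in vitro transcription and hybridised to Affymetrix Human U133 Plus 2.0 arrays, per the labels' protocols. The deposited values are linear probe set intensities that the authors normalized between arrays with dChip, per the series design text; the sources used here do not name its model or version. Groups came from the sample titles.

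A floor of 1 was set on the intensities before log2. Control probe sets and the lowest 40% by mean log2 value were left out, and the brightest probe set assigned to 1 gene stood for it (14308 genes). Symbols came from the platform annotation, updated through Entrez identifiers for 41043 of 41097 probe sets. CompE was compared with DMSO by limma 3.58.1 in R 4.3.3, two-sided, with Benjamini-Hochberg adjustment over all genes. The script was tested on simulated data. Precision is limited by the number of arrays, and the median SE of a log2 difference was 0.08.

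Members, gene lists, tests and alternatives were chosen with earlier results of these data known. From each list, up to 4 called genes per direction with the smallest p were named, or the gene with the smallest p where none was called. Motifs were searched on both strands of promoter sequences from RefSeq (GRCh38.p14), the EGR site as GCGNGGGCG, the TATA box as TATAAA and the CArG box by its usual degenerate form. The alternatives were other filters, scalings, floors and probe set rules, a replicate block, and leaving out each array.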

Additional observations from a re-analysis of the deposited data

How the results depend on the processing

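Over the settings that tested it, the difference of FOS ran from -1.31 to -1.02, FOSL1 from -0.60 to -0.44, JUN from 0.63 to 0.77 and IER3 from -0.92 to -0.71. The call count of the members was 4 and became 0 with the replicate number as a block, and 3 to 4 with an array left out. With the block, 102 genes, 31 probe sets and 1 list gene were called. Over all genes, same-numbered cultures did not deviate together (correlations of 0.02, -0.10 and -0.02 for numbers 1, 2 and 3). Such correlations cannot tell whether some genes share a batch by number, and the labels state no pairing. The brightest EGR1 probe set was highest in replicate 1 of both groups, but the other EGR1 probe sets were not. In the next brightest, CompE replicate 1 was the lowest of its group. In the dimmest, replicate 1 was the middle value of both groups.

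The total of called genes (1021) was 363 with no filter, 1751 with the lowest 60% left out, 2939 among the 10896 least variable probe sets, and 249 to 517 with an array left out. The total of called probe sets (1153) was 216, 2522, 4112 and 193 to 402 in the same settings. The 14 called list genes became 2 with no filter, 22 with hybridisation control centring, 27 among the least variable probe sets, and 1 to 6 with an array left out. That centring moved the median of all genes to -0.09 from 0.02, and 25.4% of called genes were then higher in CompE, against 64.0%. The FOS minus JUN gap (-0.75) was -0.58 with no filter, -0.68 with 16 added to each intensity, -0.82 with probe sets averaged and -0.60 among the least variable probe sets, where FOS, JUNB and FOSB were not tested and the gap is that of FOSL1 and FOSL2 against JUN and JUND. In that setting FOSL2 was also past the threshold, at the same 0.12. That setting picked probe sets by their small spread in these same arrays, which makes its p-values from limma too small. The FOSL2 call and the call counts of that setting are therefore no support for any gene. The median within-group SD of the members (0.09) was 0.0543 in that last setting, which selects on this SD and kept 4 of the members. The cause of the other shifts was not tested. Dim probe sets limit what can be said of FOSB, and of FOS in CompE.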
